A study of Mus musculus with 75 samples.

Results

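The comparison described here is between 10-month liver taken outside the tumors of mice labelled high-risk and 10-month liver of mice labelled low-risk, both exposed to tributyltin (TBT) through their mothers. It holds 11 of the 75 libraries of the series, chosen by age and risk label: 6 libraries of uninvolved high-risk liver and 5 of low-risk liver. All mice were male C57Bl/6, and TBT, an organotin compound, was given to the dams in drinking water up to weaning (3.07 µM, or a daily 0.5 mg for each kg of body weight), so that the livers were collected months after exposure had ended. The vehicle group, 6 livers of the same age, strain and sex without TBT, is used as background, and 7 tumors of the high-risk mice are given as ranges. All these libraries belong to sequencing batch 1 and were stranded total RNA libraries counted per gene. Livers of 5 months, 10 high-risk and 16 low-risk, enter only the comparison of ages, and most of each group belong to another sequencing batch. The labels do not state how the risk groups were assigned or how far the uninvolved tissue lay from a tumor. The uninvolved and low-risk libraries each carry their own mouse number, and 6 of the 7 tumors share one with an uninvolved library. The p-values measure the spread between samples, and in the main fit the vehicles share in the estimate of that spread.

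The uninvolved libraries stood apart from the others before any gene was compared. Their totals were 34.76 to 44.59 M counts (M, mega), whereas the low-risk libraries had 26.43 to 33.49 M, the vehicles 26.17 to 30.98 M and the tumors 22.5 to 27.89 M, and 24676 to 28715 genes were detected in them against 21663 to 22578 in low-risk livers. Messenger RNA of the mitochondrial genome took 2.93% to 4.427% of counts in the uninvolved libraries and 1.957% to 2.593% in the 18 low-risk, vehicle and tumor libraries. Uninvolved libraries 3 and 6 were nearly the same: the mean chi-square per gene between their counts was 3.48, against 13.5 to 175 for the 60 other pairs within the groups. They were summed, which left 5 uninvolved samples named 1, 5, 7, 3+6 and 12. By several measures libraries 1, 5 and 7 parted from libraries 3, 6 and 12, although over all genes library 12 was as far from 3 and 6 (90.7 and 88.7) as from 5 (89.9). In the former the nuclear long noncoding RNA Malat1 was at 4704 to 5800 counts per M counts (CPM), against 1133 to 1364 in the latter and 813 to 1527 in the other 18 libraries. Kcnq1ot1, another nuclear noncoding RNA, was at 99.32 to 157.9 CPM against 18.47 to 30.65 CPM. The small nuclear RNA Rn7sk was at 9040 to 10420 CPM in libraries 1, 5 and 7, 13690 to 17750 CPM in libraries 3, 6 and 12 and 4616 to 6946 CPM in the other 18. The sum of 4 Y-linked genes was 93.95 to 102.2 CPM in libraries 3, 6 and 12, against 194.3 to 205.6 CPM in libraries 1, 5 and 7 and 137.4 to 237.2 CPM elsewhere. Relative to low-risk livers, the median log2 difference of 13583 protein-coding genes went from -0.256 in the sixth with the shortest exons to 0.198 in the sixth with the longest in libraries 1, 5 and 7, and from 0.015 to 0.009 in libraries 3, 6 and 12. With GC content it went from 0.008 in the lowest to -0.022 in the highest sixth in libraries 1, 5 and 7, and from -0.407 to 0.285 in libraries 3, 6 and 12. The part of these differences in the results was not tested, and for that reason the count of each gene list below is given with the number of genes that passed with either set alone (in both sets).

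**Figure D1:**
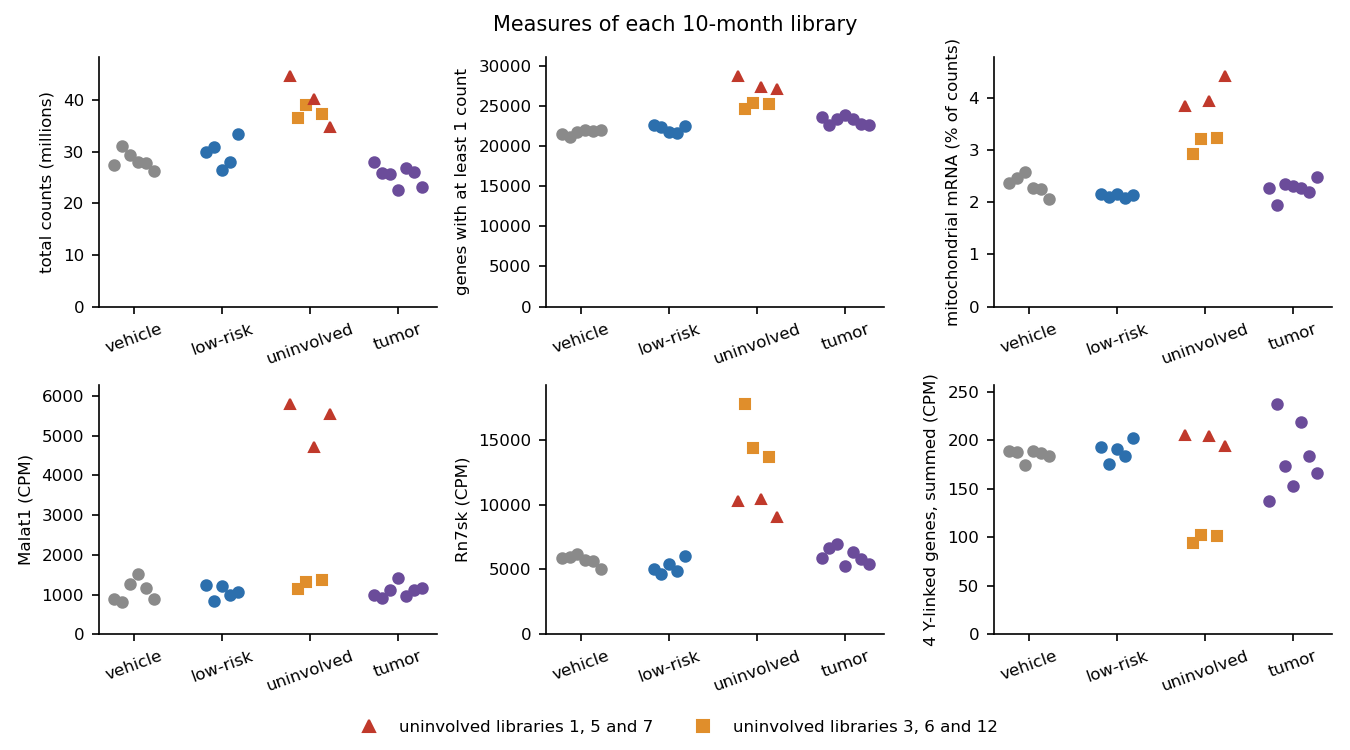
Total counts, genes detected, mitochondrial mRNA share, Malat1, Rn7sk and the summed Y-linked genes of each 10-month library, with 1 point per library and a column per group, on linear axes. Uninvolved libraries lie above the low-risk libraries in total counts, genes detected, mitochondrial share and Rn7sk, and libraries 1, 5 and 7 part from 3, 6 and 12 in Malat1 and in Y-linked counts.

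As a check of the labelled tissue, 4 secreted hepatocyte proteins, albumin among them, summed to 72000 to 94500 CPM in uninvolved and 88600 to 98400 CPM in low-risk livers. Markers of pancreatic acinar cells reached at most 7.43 CPM in either group, those of the gallbladder at most 0.564 CPM, and those of adipocytes at most 1.61 CPM. Hepatocytes make up most of the liver's mass. They make plasma proteins, cholesterol and bile acids, divide the work along the lobule between the portal and the central vein, and in males follow the pulses of pituitary growth hormone. Kupffer cells are the resident macrophages, cholangiocytes line the bile ducts, and stellate cells store vitamin A and can turn into matrix-producing myofibroblasts.

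The livers differed over a large part of the transcriptome. With the edgeR quasi-likelihood test and Benjamini-Hochberg adjustment, 8561 of 16338 genes (52.4%) passed at 0.05, 4520 of them higher (27.7% of the genes tested) and 4041 lower (24.7%) in uninvolved liver. At least 2-fold changes were found for 2563 higher and 541 lower genes. For 4918 genes (30.1%) the 5 uninvolved and 5 low-risk samples did not overlap. With either set of uninvolved libraries alone, 4752 genes (29.1%) were called in the same direction, 2313 higher and 2439 lower, and 1439 of the higher and 439 of the lower ones changed at least 2-fold. The split depended on the scaling: with library totals alone 6828 genes were higher and 1839 lower, as the median of all genes moved up by 0.246 on the log2 scale, and with trends of GC content and gene length removed 4276 were higher and 4891 lower. Changes are therefore given relative to the TMM scale, on which the median of the 13583 protein-coding genes was -0.01. In the same fit low-risk livers differed from vehicles in 0 genes by edgeR, with 688 at an unadjusted p under 0.05, a comparison in which DESeq2 was not run. Over classes of genes, 401 of 609 unclassified transcripts awaiting experimental support were higher and 7 lower (median log2 fold change 1.38), and 46 of 70 intronic transcripts were higher and 1 lower (1.30), while 62 of 389 processed pseudogenes were higher and 177 lower (-0.56). With either set of uninvolved libraries alone, 22 unclassified transcripts were higher and 5 lower, 4 intronic transcripts were higher and 0 lower, and 12 processed pseudogenes were higher and 127 lower. The medians with libraries 1, 5 and 7 alone were 1.78, 1.78 and -0.58, and with libraries 3, 6 and 12 alone 0.21, 0.22 and -0.81, so the medians of the first 2 classes were larger with the libraries high in Malat1. The filter on counts keeps a gene that reaches the cutoff in the libraries of 1 group alone. Transcripts near the floor could therefore enter through the uninvolved libraries, which had the largest totals. Such entry favours higher over lower calls, also among the 2-fold changes. The parts of nuclear RNA and of the filter in these counts were not tested.

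Values below are CPM on the TMM scale, given for uninvolved samples 1, 5, 7, 3+6 and 12 in that order and for low-risk livers 2, 4, 8, 9 and 10, and log2 fold changes are uninvolved minus low-risk. The 24 genes with the largest changes were taken from protein-coding genes whose groups did not overlap, so that separation is part of the choice. The largest increases included Gpnmb (ENSMUSG00000029816, GRCm38 chr6:49036546-49070929), a transmembrane glycoprotein of lipid-laden macrophages. It measured 39.8, 57.1, 42.1, 22.6 and 88.4 CPM in uninvolved samples and 0.271, 0.575, 0.661, 0.275 and 1.10 CPM in low-risk livers. The uninvolved samples lay above the vehicles (0.494 to 1.59 CPM) and within or above the range of the tumors (12.2 to 53.7 CPM), and the log2 fold change was 6.44 (adjusted p 4.57e-08 by edgeR, SE 0.44). Tinag (chr9:76951693-77045794), a matrix protein of basement membranes known from the kidney, was at 3.86, 3.36, 1.37, 5.06 and 6.04 CPM against 0.0338, 0.0383, 0.0389, 0 and 0 CPM. Low-risk livers held 3 Tinag counts in all, so the ratio of 231 has a 95% counting interval of 79.0 to 1120, which covers counting error only, and the fitted log2 fold change was 7.33 (adjusted p 4.26e-08 by edgeR, SE 0.55). Scn2a (chr2:65620771-65767447), a subunit of voltage-gated sodium channels best known from neurons, was at 13.2, 13.5, 12.3, 6.56 and 4.90 CPM against 0.102, 0.0383, 0.0778, 0.0305 and 0.134 CPM, with the lower levels in samples 3+6 and 12. Its log2 fold change was 6.98 (adjusted p 7.34e-09 by edgeR, SE 0.43). Noct (chr3:51224447-51251644), a rhythmic phosphatase of nicotinamide cofactors, rose from 6.46, 10.9, 8.01, 4.91 and 3.38 CPM in low-risk livers to 302, 390, 239, 77.3 and 159 CPM, a log2 fold change of 5.12 (adjusted p 7.43e-07 by edgeR, SE 0.45). Of the 12 genes it had the most counts behind it (57471 in uninvolved samples), vehicles spanned 3.38 to 8.37 CPM, and sample 3+6 was the lowest uninvolved sample.

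Another 8 genes completed the 12 with the largest increases. Lrtm2, a leucine-rich repeat membrane protein, was at 6.28, 6.90, 11.4, 19.1 and 8.79 CPM against 0, 0, 0.622, 0 and 0 CPM, where low-risk liver 8 held all 16 low-risk counts. It lies on the opposite strand inside Cacna2d4, and whether the counting used strand is not stated in the sources used here. Aqp7, a channel for water and glycerol, was at 2.14, 0.690, 0.348, 6.07 and 1.22 CPM against 3 counts over all low-risk livers, a ratio of 154 with a 95% counting interval of 52.5 to 748. Fbn2, a fibrillin of elastic microfibrils, was at 5.31, 2.22, 2.31, 2.62 and 2.86 CPM against at most 0.0677 CPM. Inava, Rasal1, Timp4, Gipc2 and Insyn1 had log2 fold changes from 4.77 to 6.38. In each of these 5 genes sample 3+6 was far above the other uninvolved samples, for instance 2.91, 1.59, 1.04, 22.3 and 2.99 CPM for Rasal1, a regulator of Ras, and 0.800, 0.582, 0.373, 8.84 and 0.980 CPM for Timp4, an inhibitor of metalloproteinases. Of the 12 genes 7 had their highest uninvolved level in sample 3+6. Timp4 lies within Syn2 on the opposite strand.

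Among the 12 genes with the largest decreases, Hsd3b5 (chr3:98618634-98630252), a steroid-reducing enzyme of male liver, was at 5.78, 17.3, 9.20, 2.73 and 10.8 CPM against 382, 173, 276, 266 and 93.4 CPM (log2 fold change -4.71 (adjusted p 2.17e-06 by edgeR, SE 0.47)). Cd163 (chr6:124304656-124330527), the receptor by which macrophages take up haptoglobin-bound hemoglobin, was at 1.38, 0.819, 1.27, 1.42 and 0.609 CPM against 33.3, 29.7, 21.4, 23.6 and 20.03 CPM, a log2 fold change of -4.51 (adjusted p 2.7e-09 by edgeR, SE 0.24). Vehicles spanned 13.1 to 26.4 CPM and tumors 0.282 to 1.80 CPM, so the uninvolved samples shared the tumors' range and the low-risk livers overlapped the vehicles. Dct, the dopachrome tautomerase known from pigment cells, was at 0.487, 0.711, 0.398, 0.469 and 0.689 CPM against 8.60, 6.70, 11.01, 4.55 and 7.23 CPM, and Hhip, which binds and restrains hedgehog ligands, was at 0.435, 0.841, 0.994, 0.481 and 0.397 CPM against 8.70, 5.98, 7.55, 6.62 and 5.12 CPM. The log2 fold changes were -3.80 (adjusted p 6.01e-09 by edgeR, SE 0.23) and -3.45 (adjusted p 1.44e-08 by edgeR, SE 0.23). Dmrta1, a transcription factor of the doublesex family, was at 0 to 0.185 CPM against 2.37, 2.49, 1.48, 2.41 and 1.98 CPM. Cxcl13, a chemokine that draws B cells, was at 0.244, 0.323, 0.0994, 0.156 and 0.265 CPM against 3.11, 3.26, 1.52, 1.37 and 1.47 CPM. The 6 others were Mup2, Mup7, Mup12, Mup15, Mup16 and Mup22, which encode major urinary proteins. For all 24 genes the uninvolved samples lay outside the vehicle range, and for 16 of the 24 the low-risk mean lay inside it. As low-risk livers and vehicles differed in 0 genes by edgeR, the choice of genes favoured this separation, which is no separate evidence. With either set of uninvolved libraries alone 23 of the 24 were called, all but Mup22.

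**Figure D2:**
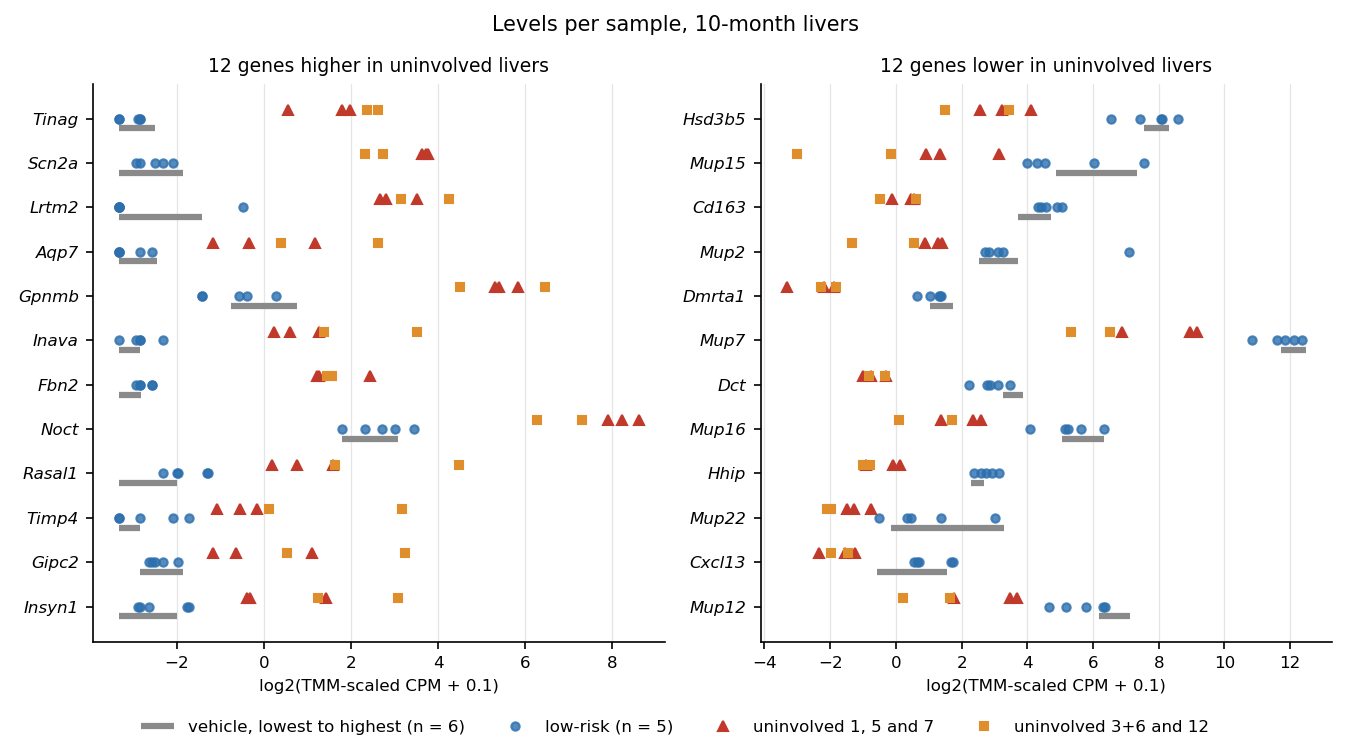
Log2(CPM + 0.1) of the 12 genes with the largest increases and the 12 with the largest decreases that met the naming rule, with 1 point per sample for uninvolved (sample 3+6 summed) and low-risk livers and a bar for the range of 6 vehicles. Groups without overlap were a condition of the naming rule. In all 24 genes the uninvolved points also lie outside the vehicle bar. Vehicles shared the fit and differed from low-risk livers in 0 genes by edgeR, so the choice of genes favoured this.

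Genes with higher levels in male liver were lower in uninvolved samples. Of 22 tested, 15 fell and 1 rose (median log2 fold change -1.57). Among the 15 were Mup1, Mup3, Mup7, Mup10, Mup12, Mup15 and Mup21, near-identical copies of the family described below, so these calls are not separate. With either set of uninvolved libraries 12 of the genes fell. Apart from Hsd3b5 they included Slco1a1, an importer of bile acids and other organic anions, at 141, 267, 162, 35.7 and 70.8 CPM against 815, 789, 864, 863 and 582 CPM (log2 fold change -2.53 (adjusted p 4.91e-05 by edgeR, SE 0.37)). Susd4, a membrane regulator of complement, fell from 58.9, 38.3, 72.6, 49.5 and 26.8 CPM to 3.81, 7.96, 8.70, 2.69 and 4.32 CPM. Both genes were lowest in sample 3+6, without overlap of the groups. Elovl3 (-1.39), which elongates fatty acids, and Cyp2d9 (-1.08), a steroid hydroxylase, also fell, whereas Cyp4a12b was the gene that rose (0.56) and Cyp4a12a (0.26), Selenbp2 (0.34) and Mup20 (-0.30) did not pass. Of the 18 female-biased genes listed, 10 were tested, and the rest did not pass the filter on counts. By edgeR 6 rose, 0 fell and 4 rose with either set (median 1.14). Their log2 fold changes ran from -1.65 to 4.02, and with DESeq2 6 were higher and 1 lower. Genes low in low-risk livers could be tested through the uninvolved samples alone, which favours those that rose. Cyp2a4, a steroid hydroxylase of female liver, was at 10.8, 17.5, 8.25, 100.5 and 28.0 CPM against 1.76, 2.45, 4.16, 0.702 and 1.31 CPM, highest in sample 3+6, and its log2 fold change was 4.02 (adjusted p 0.000262 by edgeR, SE 0.69). Fmo2 (1.12), Cyp3a44 (1.15) and the repressor Cux2 (1.31) were among the others.

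The major urinary proteins are secreted by male liver and carry pheromones into urine. Their genes are near-identical copies on chromosome 4, so that reads of single genes are uncertain, and the family is better read as a sum. Over 49 family members the sum was 4830 ± 1740 CPM (SD, n = 5) in uninvolved and 18200 ± 4160 CPM (n = 5) in low-risk livers, with ranges of 2250 to 6580 and 12300 to 23600 CPM. The groups did not overlap (log2 difference -1.98, exact two-sided permutation p 0.00794, the smallest this design allows, adjusted 0.00794 over 3 sums), and vehicles spanned 17600 to 25300 CPM. Of the 30 members tested 26 fell, 0 rose and 23 fell with either set, with a median of -2.35. Members differed in size of change: Mup3 went from 8052, 7816, 8218, 7729 and 5964 CPM to 1075, 1881, 1797, 499.9 and 893 CPM, whereas Mup20, also called darcin, was at 2014, 2620, 2426, 1293 and 2962 CPM against 2814, 2558, 3571, 3132 and 1868 CPM, overlapped and did not pass (edgeR adjusted p 0.261). The growth hormone axis itself had 15 genes tested, of which 4 fell and 1 rose (median -0.24, 3 and 1 in both sets). The share that fell, 26.7%, was close to the 24.7% of all genes tested, and 6.67% rose against 27.7%. With library totals alone the median was -0.01, with 3 higher against 2 lower. Ghr, the growth hormone receptor, was at 445, 539, 452, 295 and 369.5 CPM against 766, 699, 828, 794 and 700.4 CPM (-0.85 (adjusted p 4.99e-05 by edgeR, SE 0.13)). Igfals (-1.02), which stabilises circulating IGF1, Jak2 (-0.38) and Stat5b (-0.38) fell as well, while Igf1 (-0.12), Socs2 (-0.84) and Cish (-0.86) did not pass.

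Cholesterol synthesis runs from acetyl-CoA through mevalonate and squalene to sterols, and its genes are switched on together by SREBP2 when membranes are poor in sterol. Of 20 genes tested, 19 fell, 0 rose and 13 fell with either set of uninvolved libraries (median -1.28). In 14 of the 20 the groups did not overlap, against 30.1% of all genes tested, in either direction. The summed level of the list was 1980, 1700, 1370, 2120 and 2070 CPM in uninvolved samples and 3540, 3490, 3630, 2620 and 4160 CPM in low-risk livers, so each uninvolved sample was below each low-risk liver. At the entry to the pathway, Hmgcs1, which makes HMG-CoA, was at 229, 128, 109.7, 191 and 129.5 CPM against 395, 389, 442, 263 and 486 CPM (log2 fold change -1.33 (adjusted p 0.000181 by edgeR, SE 0.23)). Mvd, which decarboxylates mevalonate diphosphate, was at 8.20, 4.12, 4.30, 6.25 and 6.33 CPM against 19.1, 16.9, 22.5, 10.7 and 31.3 CPM (-1.78 (adjusted p 0.000602 by edgeR, SE 0.34)), and Idi1, which isomerises the isoprene unit, at 25.2, 13.8, 11.8, 14.8 and 10.4 CPM against 53.3, 51.9, 59.4, 34.3 and 59.0 CPM (-1.76 (adjusted p 2.73e-05 by edgeR, SE 0.24)). Low-risk liver 9 was the lowest of its group for all 3 genes. The largest change was in Fdps, which joins isoprene units, at 12.98, 7.33, 5.97, 10.5 and 10.9 CPM against 47.8, 45.9, 55.2, 25.4 and 62.6 CPM (-2.31 (adjusted p 1.67e-05 by edgeR, SE 0.30)). Hsd17b7, a sterol 3-ketoreductase, had the smallest adjusted p of the list and was at 35.6, 27.8, 32.79, 35.0 and 37.6 CPM against 109.6, 109, 91.7, 89.5 and 100.3 CPM (-1.57 (adjusted p 1.95e-08 by edgeR, SE 0.11)). Sqle, the squalene epoxidase, overlapped between the groups (-1.72).

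Promoter sequences of this pathway are shown for the 3 enzymes above, since they moved together. They are RefSeq sequences of the GRCm38.p6 assembly, 150 bases before the start site, read 5′ to 3′ along the gene, and the capitals mark matches, on either strand, to CCAAT, the box bound by NF-Y, or to TCACNCCAC, a sterol regulatory element. Hmgcs1 lies at chr13:119690201-119690350 (plus strand), Mvd at chr8:122443423-122443572 (minus strand) and Idi1 at chr13:8885456-8885605 (plus strand).
Hmgcs1: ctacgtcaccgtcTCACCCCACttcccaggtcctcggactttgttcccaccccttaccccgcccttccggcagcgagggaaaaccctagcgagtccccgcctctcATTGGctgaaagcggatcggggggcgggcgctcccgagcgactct
Mvd: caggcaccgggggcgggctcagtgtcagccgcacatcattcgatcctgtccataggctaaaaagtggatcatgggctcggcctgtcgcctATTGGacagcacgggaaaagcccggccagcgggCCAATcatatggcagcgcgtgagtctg
Idi1: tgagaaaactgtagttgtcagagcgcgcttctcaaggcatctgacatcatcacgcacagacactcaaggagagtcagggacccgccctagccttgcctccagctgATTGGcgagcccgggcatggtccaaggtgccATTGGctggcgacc
Hmgcs1 has 1 match to each motif, and Mvd and Idi1 have 2 matches each to CCAAT. Of the 20 genes listed 15 matched the promoter table, and 14 of the 15 (93.3%) hold CCAAT, against 27.7% of all 27025 promoters of this length. TCACNCCAC is in 1 of the 15 (6.67%) and in 0.755% of all. A match describes these letters and not a site in use.

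Genes of cholesterol uptake and sensing followed in part, with 7 lower and 2 higher of 13 tested (median -0.38), 6 and 1 of them with either set. Insig1, which holds SREBP precursors in the endoplasmic reticulum, was at 178, 208, 136, 129.8 and 199 CPM against 379, 354, 438, 309 and 419.5 CPM (-1.16 (adjusted p 7.92e-05 by edgeR, SE 0.18)). Stard4 (-1.58), a sterol carrier, Insig2 and Scap (-0.94) fell, Srebf2 did not pass (-0.03), and the sterol exporters Abcg1 (0.59) and Abcg5 (0.62) rose. In fatty acid synthesis 9 of 20 genes fell and 1 rose (median -0.70), but with either set alone only Dgat2, which makes triglyceride, fell (-1.22) and Scd2 rose. Me1, which supplies NADPH, was at 85.5, 75.3, 47.2, 97.7 and 92.8 CPM against 192, 287, 214, 227 and 297 CPM (-1.61 (adjusted p 0.00212 by edgeR, SE 0.37)), and Thrsp, a lipogenic regulator, changed by -1.93. Acly (-1.20) and Elovl6 (-1.16) fell, while Fasn (-0.78), Scd1 (-0.88), Acaca (-0.61) and Srebf1 (-0.25) did not pass. Vehicles varied widely in this list, from 104 to 533 CPM for Me1. Scd2, a desaturase of fetal liver and brain, went the other way with 27.6, 23.97, 13.2, 176 and 38.6 CPM against 10.5, 11.4, 11.5, 7.36 and 10.9 CPM (2.44 (adjusted p 0.00207 by edgeR, SE 0.55)), and sample 3+6 was far above the rest.

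Lipid droplet genes were mixed, with 7 lower and 3 higher of 15 (median -0.23), whereas with library totals alone 3 were lower and 4 higher with a median of 0.002. With either set of uninvolved libraries 1 fell and 2 rose. Cidec, which fuses droplets, was at 54.1, 26.4, 16.7, 31.0 and 54.3 CPM against 4.26, 8.70, 1.87, 6.32 and 10.9 CPM (2.50 (adjusted p 0.000265 by edgeR, SE 0.43)), with no overlap. G0s2 (-1.49), which inhibits the lipase Pnpla2, fell, and Pnpla2 itself rose (0.53). Of 23 genes of PPARα and fatty acid oxidation 9 fell and 0 rose (median -0.33), 5 fell with either set, and 5 fell with library totals alone. Ppara, the nuclear receptor of fasting, was at 127, 105, 114, 113 and 126 CPM against 234, 239, 195, 238 and 219 CPM (-0.94 (adjusted p 3.1e-06 by edgeR, SE 0.11)). Fabp1 (-0.97), the liver fatty acid binding protein, Acot1 (-1.32) and Acadvl (-0.72) fell, whereas the direct targets Cyp4a10 (-0.33), Cyp4a14 (0.17) and Cpt1a (-0.17) did not pass.

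Bile acids are made from cholesterol in the hepatocyte, taken back from portal blood and exported into bile. Of 22 genes of these steps 13 fell and 2 rose (median -0.67), and 11 fell and 1 rose with either set. Cyp8b1, which sets the share of cholic acid, was at 242, 259.5, 301, 150.2 and 332 CPM against 460.5, 526, 782, 663 and 580.4 CPM (-1.23 (adjusted p 0.000131 by edgeR, SE 0.21)), and Hsd3b7 (-1.81), Cyp27a1 (-0.94), Akr1d1 (-0.74) and Baat (-0.69), which act after or beside it, fell too. The rate-limiting Cyp7a1 was at 129.8, 66.0, 162, 61.8 and 62.3 CPM against 199, 145, 76.2, 75.7 and 68.7 CPM, overlapped and did not pass (-0.23 (adjusted p 0.682 by edgeR, SE 0.44)). Among transporters, Slc10a1, the sodium-dependent importer NTCP, was at 274, 284, 349, 172 and 323 CPM against 717, 749, 726, 613 and 628 CPM (-1.29 (adjusted p 4.39e-06 by edgeR, SE 0.15)). Slco1b2 (-1.70) and the export pump Abcb11 (-0.78) also fell, while Abcc4 (1.67) and Slc51b (2.43), which export bile acids back to blood, rose. The bile acid sensor Nr1h4 fell (-0.64) and Nr0b2 did not pass (-0.19). With library totals alone 12 of the 22 fell and 2 rose.

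Along the lobule, 12 of 20 perivenous and Wnt target genes fell and 1 rose (median -0.68, 9 and 1 in both sets), whereas 3 of 18 periportal and urea cycle genes fell and 4 rose (median 0.13, 3 and 1 in both sets). Cyp2c37, a perivenous cytochrome P450, was at 20.1, 16.8, 19.9, 25.9 and 22.3 CPM against 159, 207, 159, 228 and 185 CPM (-3.16 (adjusted p 4.34e-09 by edgeR, SE 0.18)). Cyp2e1, which oxidises ethanol, was at 3228, 3145, 4375, 1192 and 4907 CPM against 7330, 5659, 7513, 7360 and 6165 CPM (-1.01 (adjusted p 0.00584 by edgeR, SE 0.28)), with sample 3+6 the lowest. Glul, the glutamine synthetase next to the central vein, was at 798, 569, 581, 292 and 757 CPM against 1369, 1368, 769.6, 927 and 1377 CPM and overlapped (-0.96 (adjusted p 0.00354 by edgeR, SE 0.24)). Oat (-1.47), Cyp1a2 (-1.28), Gulo (-1.08) and Lect2 (-0.99) fell. Wnt target and feedback genes were mixed. Znrf3, Notum and Sp5 fell, Tcf7 rose, and Axin2 (0.12), Lgr5 (-0.09), Nkd1 (0.09) and Rnf43 (-0.17) did not pass. Among periportal genes Otc (-0.64), Slc25a13 (-0.52) and Nags (-0.36) fell and Aldh1b1 (1.45), Tat (0.61), Sds (0.61) and Ass1 (0.47) rose, with 9 higher and 2 lower when only library totals were used.

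Of 24 hepatocyte transcription factors and nuclear receptors 9 fell and 3 rose, with 5 and 1 in both sets. Their median was -0.24, which became 0.001 with library totals alone, where 7 fell and 6 rose. Hnf4a, a master regulator of hepatocyte identity, was at 479, 549.8, 651, 669 and 735 CPM against 587, 619, 682, 614 and 492.9 CPM and did not pass (0.04 (adjusted p 0.808 by edgeR, SE 0.13)). Cebpa (-0.98), Cebpb (-0.87), the xenobiotic sensor Nr1i3 (-1.21) and Nr5a2 (-0.46) fell, and Prox1 (0.47) rose. Complement and coagulation genes had 12 lower and 1 higher of 25 (median -0.30), with 7 and 0 in both sets and 6 lower against 5 higher with library totals alone. C8g (-1.003) and the mannose-binding lectin Mbl1 (-0.92) changed most. Acute phase genes mostly did not pass, with 3 lower and 2 higher of 20 (2 and 1 in both sets), and their median went from -0.17 to 0.066 with library totals alone. Hamp, the iron hormone hepcidin, rose (1.22), Lcn2 rose (2.64), Apcs fell (-1.55), and Saa1 (-0.58) and Hp (-0.21) did not pass. Secreted and defining hepatocyte genes had 9 lower and 1 higher of 16 (median -0.38, 3 and 0 in both sets), with Alb (-0.41) among those that fell, but 5 lower and 4 higher with library totals alone.

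The unfolded protein response, through which the endoplasmic reticulum adds chaperones under load, had 11 lower and 1 higher of 14 genes (median -0.79). Hspa5, the chaperone BiP, was at 385, 456, 360.4, 510.4 and 618 CPM against 799, 776, 893, 1259 and 928 CPM (-0.999 (adjusted p 0.000906 by edgeR, SE 0.21)). Sdf2l1 (-1.10), Manf (-0.96), Hyou1 (-0.93) and Xbp1 (-0.63) fell and Dnajb9 rose (0.51), yet with either set of uninvolved libraries alone only 4 of the 11 passed: Sel1l, Dnajc3, Edem1 and Hsp90b1. The integrated stress response had 7 higher and 1 lower of 20 (median 0.37, 3 and 1 in both sets, 13 and 1 with library totals alone). Atf3 (2.07), Nupr1 (1.79) and Phgdh (1.03) rose, Atf4 fell (-0.44), and Asns (-0.85), Chac1 (-0.35) and Trib3 (0.63) did not pass. Targets of NRF2, the factor that answers electrophiles and oxidants, had 12 higher and 0 lower of 26 (median 0.44), 10 of them in both sets. Gstm3, a glutathione transferase, was at 166, 75.8, 50.4, 746 and 247 CPM against 16.8, 25.2, 31.9, 10.6 and 20.3 CPM (3.62 (adjusted p 0.00033 by edgeR, SE 0.63)), and Nqo1, a quinone reductase, at 9.38, 8.26, 8.62, 22.9 and 10.6 CPM against 4.57, 6.36, 6.81, 4.64 and 5.79 CPM (1.09 (adjusted p 0.00476 by edgeR, SE 0.29)). Gsta1 (3.05), Gsta2 (2.30), Cbr3 (2.22) and Slc7a11 (2.86), the cystine importer, rose, while Gclc (-0.10), Gclm (-0.10), Txnrd1 (-0.12) and Srxn1 (0.46) did not pass. Sample 3+6 was the highest uninvolved sample for Gstm3, Nqo1 and Slc7a11, and its list sum of 7510 CPM compares with 3250 to 5160 CPM in the other 4 samples.

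Genes of mitosis were higher, most in samples 3+6 and 1. Of 20 tested 19 rose, 0 fell and 17 rose with either set of uninvolved libraries (median 2.44), and the summed level was 101, 40.9, 26.7, 205 and 45.9 CPM against 17.1, 23.5, 13.5, 15.9 and 25.5 CPM. Each uninvolved sum was above each low-risk sum, though sample 7 (26.7 CPM) was close to low-risk liver 10 (25.5 CPM). Mki67, a chromosome coat protein of cycling cells, was at 25.5, 11.4, 7.71, 36.5 and 7.18 CPM against 4.57, 5.17, 2.45, 3.24 and 5.63 CPM (2.07 (adjusted p 0.00213 by edgeR, SE 0.47)). Cdc20, which activates the anaphase-promoting complex, was at 3.58, 0.970, 0.671, 14.1 and 2.65 CPM against 0.711, 0.575, 0.233, 0.519 and 0.603 CPM and overlapped (3.06 (adjusted p 0.00405 by edgeR, SE 0.77)). Cdk1, the mitotic kinase, was at 3.62, 1.40, 0.721, 9.13 and 2.44 CPM against 0.609, 1.88, 0.583, 0.488 and 0.938 CPM (1.97 (adjusted p 0.00933 by edgeR, SE 0.58)), and with uninvolved libraries 1, 5 and 7 alone it did not pass (log2 fold change 1.11, edgeR adjusted p 0.077). Its partner cyclin Ccnb2 was at 2.35, 0.992, 0.646, 6.34 and 1.70 CPM against 0.203, 0.460, 0.389, 0.488 and 0.536 CPM without overlap (2.54 (adjusted p 0.00108 by edgeR, SE 0.55)). Sample 3+6 was the highest uninvolved sample for all 4 genes, and sample 7 or 12 the lowest. Kif11 was the gene that did not pass (0.97).

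Promoters of the 3 genes Cdc20, Cdk1 and Ccnb2 are shown because the list rose together. The capitals mark matches on either strand to CCAAT or to TTTGAA, the cell-cycle homology region through which repressor complexes act on late cell-cycle genes. Cdc20 lies at chr4:118437344-118437493 (minus strand), Cdk1 at chr10:69352913-69353062 (minus strand) and Ccnb2 at chr9:70421555-70421704 (minus strand), again 150 bases before the start site in RefSeq GRCm38.p6.
Cdc20: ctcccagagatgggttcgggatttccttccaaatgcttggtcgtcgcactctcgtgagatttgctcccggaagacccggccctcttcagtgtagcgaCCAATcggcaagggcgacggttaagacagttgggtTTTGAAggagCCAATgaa
Cdk1: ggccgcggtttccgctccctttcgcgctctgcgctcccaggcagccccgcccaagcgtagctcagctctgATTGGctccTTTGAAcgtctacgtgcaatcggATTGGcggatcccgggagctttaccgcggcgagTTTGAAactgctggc
Ccnb2: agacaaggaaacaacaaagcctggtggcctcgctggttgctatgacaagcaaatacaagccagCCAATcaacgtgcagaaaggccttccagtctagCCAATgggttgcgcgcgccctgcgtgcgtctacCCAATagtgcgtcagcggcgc
Cdc20 has 2 matches to CCAAT and 1 to TTTGAA, Cdk1 has 2 of each, and Ccnb2 has 3 to CCAAT and 0 to TTTGAA. Of the 15 listed genes with a promoter in the table, 14 (93.3%) hold CCAAT and 6 (40.0%) hold TTTGAA, against 27.7% and 10.5% of all 27025 promoters.

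Replication genes moved less, with 5 higher and 2 lower of 19 (median 0.28), and 10 higher and 0 lower with library totals alone. The share that rose, 26.3%, was close to the 27.7% of all genes tested, and 10.5% fell against 24.7%. The median was -0.04 with libraries 1, 5 and 7 alone and 0.498 with libraries 3, 6 and 12 alone. In both sets Ccnd1 and E2f1 rose and Pcna fell. Ccnd1, the cyclin of G1 phase, was at 61.4, 55.5, 44.0, 77.2 and 108 CPM against 30.9, 20, 8.71, 13.5 and 11.1 CPM (2.04 (adjusted p 0.000156 by edgeR, SE 0.33)), with vehicles at 6.07 to 13.6 CPM. Pcna (-0.35) and Mcm10 (-0.81) fell, Mcm5 (1.14) and Gins2 (1.59) rose, and Mcm4 (0.26), Rrm2 (0.40) and Tyms (0.03) did not pass. Targets of p53 and senescence genes had 9 higher and 1 lower of 19 (median 0.42), the 9 in both sets. Cdkn1a, which encodes the cell-cycle inhibitor p21, was at 4.66, 15.3, 12.4, 25.2 and 13.2 CPM against 0.711, 0.881, 0.700, 1.22 and 2.31 CPM (3.59 (adjusted p 0.00014 by edgeR, SE 0.58)). Psrc1 (4.46), Tnfrsf10b (2.53) and Phlda3 (2.11) rose, while Mdm2, at 27.2, 27.8, 31.7, 22.2 and 24.1 CPM against 28.0, 27.4, 27.5, 29.6 and 27.6 CPM, did not pass (-0.08 (adjusted p 0.46 by edgeR, SE 0.08)), and neither did Bax (0.11) nor Gdf15 (-0.16). MAPK output had 9 higher and 1 lower of 20 (median 0.69; 14 and 0 with library totals alone), of which only Egr1 (1.61), Spry1 (0.75) and Spred2 (0.47) passed with either set. The feedback phosphatase Dusp6 did not pass (-0.09).

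Genes of bile duct and progenitor cells were higher throughout: 18 of 18 tested rose, 16 with either set (median 2.06). Epcam, an adhesion protein of biliary cells, was at 9.83, 5.07, 5.20, 5.37 and 10.2 CPM against 1.59, 1.65, 1.87, 1.04 and 1.61 CPM (2.20 (adjusted p 5.86e-06 by edgeR, SE 0.26)). The keratin Krt19 was at 4.66, 2.33, 2.04, 3.46 and 5.01 CPM against 0.575, 0.498, 0.856, 0.885 and 1.41 CPM (2.04 (adjusted p 0.000185 by edgeR, SE 0.36)), and the duct-forming transcription factor Sox9 at 9.85, 11.9, 22.1, 22.6 and 12.6 CPM against 5.38, 4.33, 6.53, 5.40 and 4.46 CPM (1.60 (adjusted p 6.66e-05 by edgeR, SE 0.25)). No group overlapped for these genes, and vehicles lay with the low-risk livers at 0.623 to 1.86 CPM for Epcam and 0.313 to 1.33 CPM for Krt19. Cldn4 had the largest change of the list (4.62) and Krt8 and Krt18, which hepatocytes also make, the smallest (0.56 and 0.55). The 5 defining markers summed to 36.9 to 56.1 CPM in uninvolved and 13.5 to 15.4 CPM in low-risk livers. In tissue RNA such as this, a larger number of cells of a type and more RNA per cell cannot be told apart.

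Most collagen genes and 16 of 25 stellate cell and myofibroblast genes were higher. Of 18 collagen genes 15 rose and 0 fell (median 1.34, 13 in both sets), while the sum of the list overlapped, at 1750 to 2320 CPM in uninvolved and 1530 to 1810 CPM in low-risk livers. Col1a1, the main fibrillar collagen, was at 33.4, 16.5, 19.5, 78.8 and 32.4 CPM against 11.7, 7.39, 5.02, 3.91 and 7.70 CPM (2.34 (adjusted p 0.000188 by edgeR, SE 0.39)), and Col5a2, which helps set fibril size, at 64.9, 132, 92.3, 49.0 and 55.5 CPM against 5.52, 3.95, 4.59, 2.78 and 4.32 CPM (4.22 (adjusted p 4.57e-08 by edgeR, SE 0.30)). For Col1a1 sample 3+6 was the highest and for Col5a2 the lowest uninvolved sample, and no group overlapped. Of 25 stellate cell and myofibroblast genes 16 rose and 2 fell (median 1.19, 15 and 1 in both sets), 7 did not pass, and the list summed to 863 to 1030 CPM against 553 to 759 CPM. Pdgfra, a growth factor receptor of mesenchymal cells, was at 49.9, 40.2, 45.7, 39.6 and 48.5 CPM against 11.9, 7.82, 14.1, 9.77 and 10.4 CPM (2.05 (adjusted p 9.08e-08 by edgeR, SE 0.17)). Timp1, which inhibits matrix degradation, was at 1.57, 1.16, 0.497, 0.973 and 1.96 CPM against 0.305, 0, 0, 0.0611 and 0.0670 CPM (3.73 (adjusted p 6.9e-05 by edgeR, SE 0.58)). In contrast, Colec10, a collectin of quiescent stellate cells, fell from 42.5, 41.6, 48.8, 43.3 and 42.3 CPM to 8.53, 13.3, 8.75, 7.44 and 4.58 CPM (-2.36 (adjusted p 1.18e-07 by edgeR, SE 0.19)), and Lrat, which stores vitamin A, fell by 0.56. Acta2, the smooth muscle actin of myofibroblasts, was at 6.70, 4.94, 4.55, 5.85 and 7.65 CPM against 3.52, 4.56, 4.98, 4.21 and 5.73 CPM, overlapped and did not pass (0.37 (adjusted p 0.165 by edgeR, SE 0.22)). Tagln (-0.02) and Rgs5 (-0.31) did not pass. The 5 stellate markers, of which Des rose and Lrat and Colec10 fell, summed to 180 to 271 CPM in uninvolved and 208 to 309 CPM in low-risk livers. The 4 myofibroblast markers summed to 26.9 to 95.3 CPM against 9.05 to 15.1 CPM. That sum holds Col1a1, at 16.5 to 78.8 CPM in uninvolved samples, while Acta2 and Tagln did not pass, so it need not stand for the cell type. With trends of GC content and gene length removed, 5 stellate genes fell in place of 2.

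**Figure D3:**
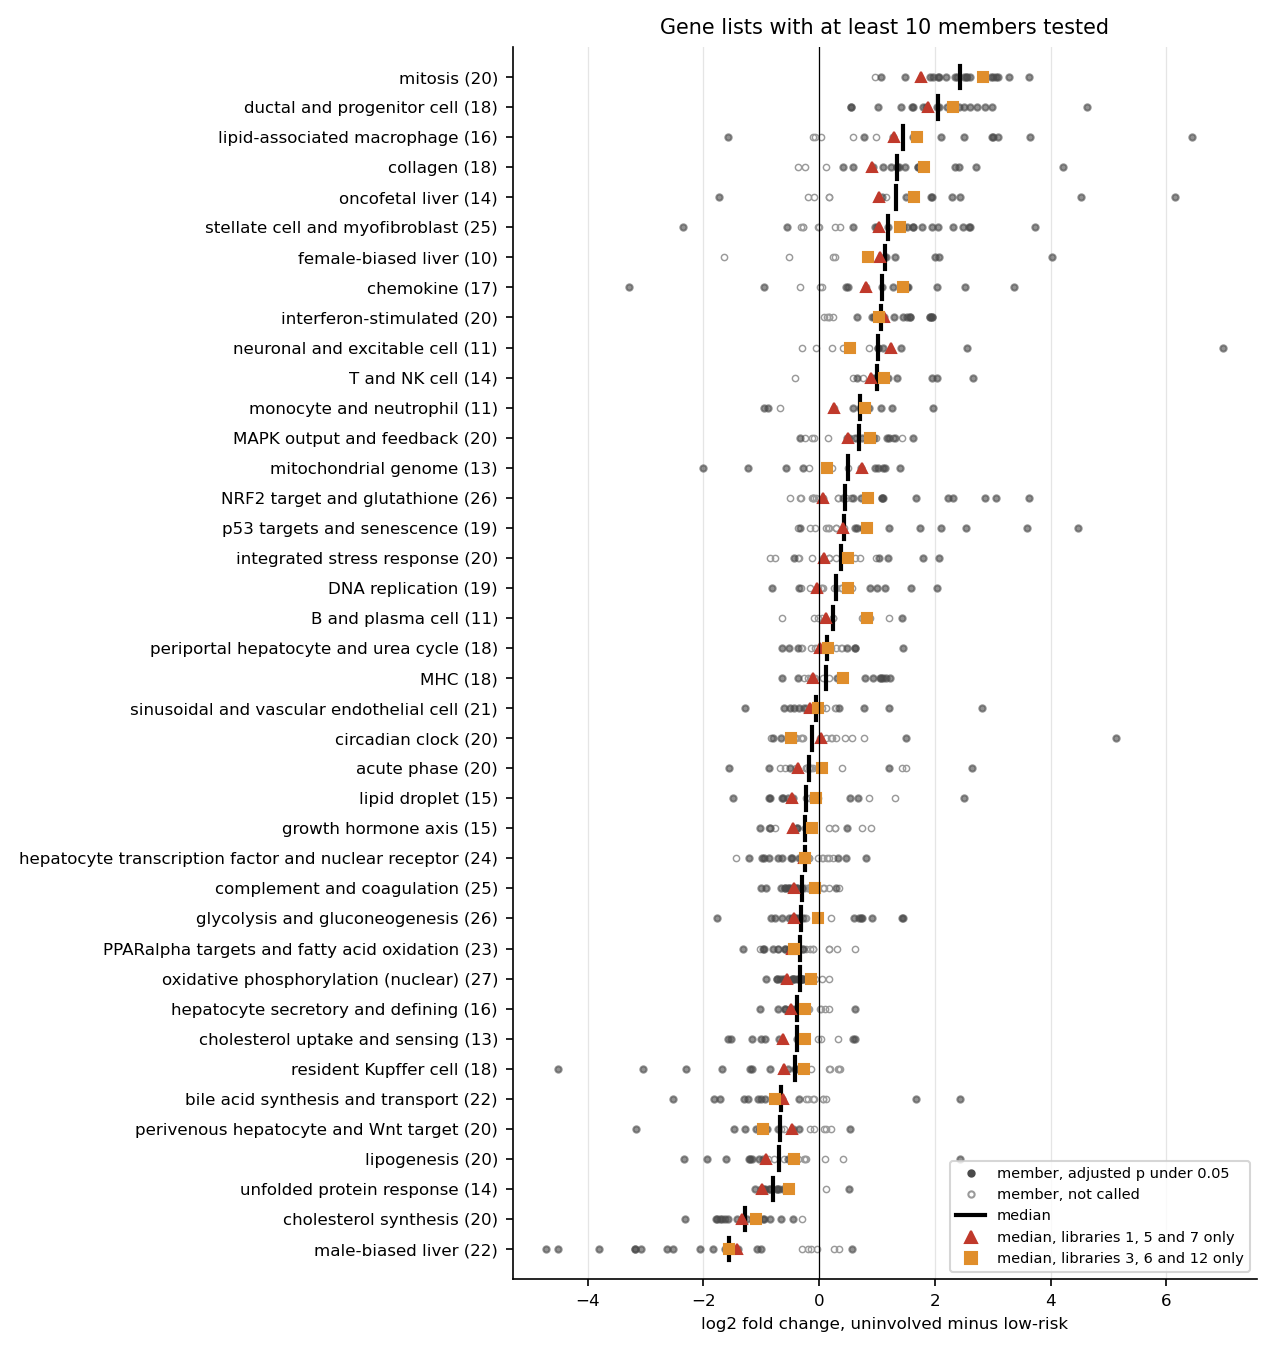
Log2 fold change, uninvolved minus low-risk, of every tested gene of the 40 lists with at least 10 tested genes, with 1 point per gene and a bar at the list's median. The medians run from -1.57 for male-biased genes to 2.44 for mitosis genes, and all points of the ductal list lie above 0.

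The macrophage genes of the liver split by kind. Of 18 genes of resident Kupffer cells 11 fell and 0 rose (median -0.41, 8 in both sets; 7 lower and 3 higher with library totals alone). Timd4, the phosphatidylserine receptor of long-lived Kupffer cells, was at 0.853, 1.25, 0.646, 1.08 and 0.503 CPM against 7.07, 8.96, 7.74, 6.99 and 5.59 CPM (-3.04 (adjusted p 2.18e-08 by edgeR, SE 0.21)). Clec4f, a lectin found in Kupffer cells, was at 48.1, 57.7, 38.6, 69.4 and 49.1 CPM against 109, 128, 132, 116 and 118 CPM (-1.20 (adjusted p 1.51e-06 by edgeR, SE 0.13)), and Vsig4, a complement receptor, at 20.1, 25.9, 15.9, 27.6 and 18.2 CPM against 39.1, 39.8, 44.8, 33.9 and 36.7 CPM (-0.85 (adjusted p 7.49e-05 by edgeR, SE 0.13)). The groups did not overlap for any of them. The scavenger receptor Marco (-2.30) and the ficolin Fcna (-1.68) fell too, but the complement genes C1qa (0.34), C1qb (0.36) and C1qc (0.16) and the receptor Csf1r (-0.27), which macrophages share, did not pass. Of 16 genes of lipid-associated macrophages 10 rose and 1 fell (median 1.45, 9 and 0 in both sets). Trem2, the lipid receptor of these cells, was at 7.55, 6.88, 5.54, 6.88 and 11.8 CPM against 1.22, 0.536, 1.28, 0.794 and 0.971 CPM (3.00 (adjusted p 2.46e-07 by edgeR, SE 0.26)). Mmp12 (3.65), a macrophage elastase, Cd63 (3.098), Itgax (2.99) and Lpl (2.51) rose, Fabp5 fell (-1.58), and the lysosomal proteases Ctsb (0.04), Ctsd (-0.07) and Ctsl (-0.10) did not pass. The 5 defining markers of each kind summed to 122 to 239 CPM in uninvolved and 249 to 318 CPM in low-risk livers for Kupffer cells, and to 95.6 to 172 CPM against 17.7 to 24.4 CPM for lipid-associated macrophages, whose sum was 74.3 to 173 CPM in tumors. Over the whole lists, in which abundant shared genes weigh most, the sums overlapped, at 579 to 980 CPM against 929 to 1080 CPM for Kupffer cell genes and 1610 to 2400 CPM against 1530 to 1890 CPM for lipid-associated macrophage genes.

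**Figure D4:**
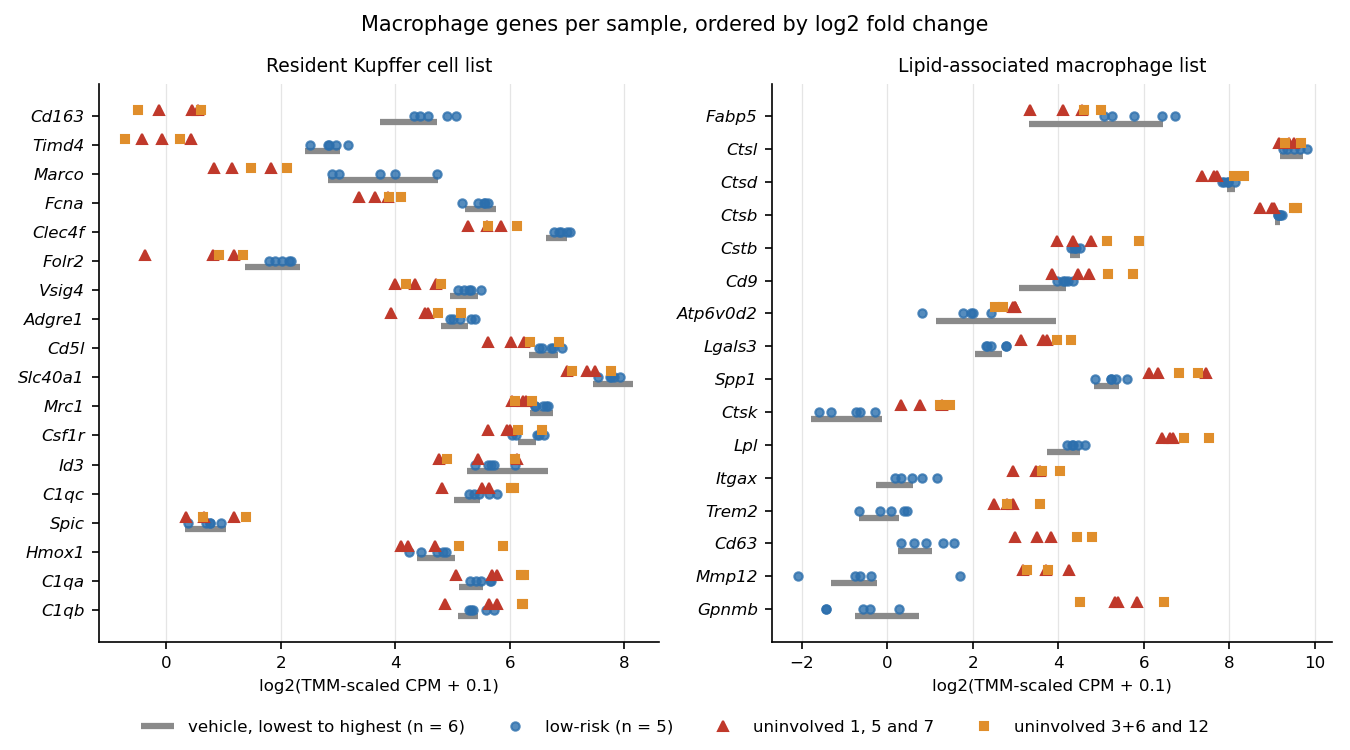
Log2(CPM + 0.1) of 18 genes of resident Kupffer cells and 16 of lipid-associated macrophages, with 1 point per uninvolved (sample 3+6 summed) and low-risk sample. Cd163 and Timd4 show the widest gaps among the former, with uninvolved points below, and Gpnmb the widest among the latter, with uninvolved points above.

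Other immune genes moved to different extents. T and NK cell genes had 11 higher and 0 lower of 14 (median 0.999), 5 of them in both sets, at low levels: Cd8a was at 1.30, 2.74, 1.04, 1.20 and 1.72 CPM against 0.338, 0.804, 0.467, 0.305 and 0.168 CPM (1.95 (adjusted p 0.000728 by edgeR, SE 0.40)), and the summed 3 markers at 2.65 to 5.21 CPM against 0.5 to 1.45 CPM. Cd3e rose (2.66) and Cd4 did not pass (-0.42). B and plasma cell genes had 2 higher and 0 lower of 11 and 0 in both sets, Cd79a (0.78) and Ighg2b (1.43). Monocyte and neutrophil genes had 6 higher and 2 lower of 11 (median 0.70, 3 and 0 in both sets), with Ly6c2 (1.97) and Ccr2 (1.26) higher and the neutrophil proteins S100a9 (-0.89) and Fpr1 (-0.96) lower. Chemokines had 11 higher and 2 lower of 17 (median 1.09, 9 and 1 in both sets). Cx3cl1, the membrane-bound fractalkine, was at 6.16, 3.84, 3.03, 9.91 and 7.95 CPM against 0.812, 0.958, 1.48, 1.10 and 1.04 CPM (2.52 (adjusted p 5.59e-06 by edgeR, SE 0.30)), and Ccl5 (2.03), Ccl2 (1.54) and Cxcl10 (1.51) rose while Cxcl13 and Ccl24 (-0.94) fell. In antigen presentation, 8 of 18 genes rose and 2 fell (7 and 1 in both sets; 5 fell with trends of GC content and gene length removed). Class II genes such as H2-Ab1, at 62.5, 61.7, 41.2, 89.8 and 116 CPM against 24.9, 29.2, 40.4, 29.7 and 34.5 CPM (1.23 (adjusted p 0.000167 by edgeR, SE 0.21)), made up all but 1 of the 8 with their activator Ciita (1.05), and the class I genes H2-K1 (-0.37) and H2-Q7 (-0.64) fell.

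Interferon-stimulated genes, which block viral replication and are switched on by ISGF3, had 15 higher and 0 lower of 20 (median 1.08), 14 of them in both sets. The list sums were 566, 452, 435, 568 and 489 CPM against 345, 352, 331, 303 and 338 CPM, without overlap. Isg15, a ubiquitin-like modifier, was at 9.54, 5.30, 4.40, 8.13 and 6.81 CPM against 4.06, 3.79, 2.49, 2.78 and 3.75 CPM (1.02 (adjusted p 0.000393 by edgeR, SE 0.19)). Oas1a, which senses double-stranded RNA, was at 11.3, 6.12, 3.85, 13.2 and 6.86 CPM against 3.45, 2.60, 3.62, 2.56 and 2.28 CPM (1.52 (adjusted p 0.000261 by edgeR, SE 0.28)), and Ifit1, which binds foreign RNA ends, at 22.3, 14.6, 20.03, 18.2 and 11.6 CPM against 8.94, 7.28, 6.81, 7.84 and 8.91 CPM (1.12 (adjusted p 0.000335 by edgeR, SE 0.21)). Their groups did not overlap. The signalling genes Stat2 (0.16) and Irf9 (0.13) did not pass, nor did Bst2 (0.23) and Ddx58 (0.17).

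The promoters of these 3 genes are printed with matches on either strand to TTTCNNTTT, the core of the interferon-stimulated response element, in capitals. They cover 150 bases before the start site in RefSeq GRCm38.p6: Isg15 at chr4:156200819-156200968 (minus strand), Oas1a at chr5:120907526-120907675 (minus strand) and Ifit1 at chr19:34640739-34640888 (plus strand).
Isg15: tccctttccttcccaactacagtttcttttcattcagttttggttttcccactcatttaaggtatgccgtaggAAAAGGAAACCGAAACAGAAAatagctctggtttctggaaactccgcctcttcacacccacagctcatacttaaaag
Oas1a: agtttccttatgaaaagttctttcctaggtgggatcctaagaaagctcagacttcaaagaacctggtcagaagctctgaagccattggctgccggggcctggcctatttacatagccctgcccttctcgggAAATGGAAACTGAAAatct
Ifit1: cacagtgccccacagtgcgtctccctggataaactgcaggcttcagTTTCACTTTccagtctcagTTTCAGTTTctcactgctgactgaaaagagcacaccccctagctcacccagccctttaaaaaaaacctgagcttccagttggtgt
Isg15 has 3 overlapping matches, Oas1a 2 overlapping and Ifit1 2 separate ones. Of 14 listed genes with a RefSeq promoter, 8 (57.1%) hold the motif, against 5.98% of all 27025 promoters.

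Endothelial genes showed no common direction, with 4 higher and 6 lower of 21 (median -0.06, 3 and 4 in both sets; 8 higher and 3 lower with a median of 0.177 with library totals alone). Cd34, a glycoprotein of vascular endothelium that sinusoids mostly lack, was at 14.5, 8.43, 5.27, 12.3 and 14.3 CPM against 1.22, 1.38, 1.48, 2.08 and 1.61 CPM (2.81 (adjusted p 4.39e-05 by edgeR, SE 0.41)), and the lymphatic and sinusoidal receptor Lyve1 at 13.7, 13.8, 16.9, 20.7 and 16.98 CPM against 4.47, 8.24, 6.22, 6.01 and 10.7 CPM (1.20 (adjusted p 6.57e-05 by edgeR, SE 0.19)). Wnt2, an endothelial Wnt ligand for perivenous hepatocytes, was at 1.79, 2.11, 1.49, 1.83 and 2.54 CPM against 4.09, 6.70, 3.58, 4.67 and 4.59 CPM (-1.28 (adjusted p 4.27e-05 by edgeR, SE 0.19)), and Rspo3, which strengthens Wnt signals, fell (-0.44). Wnt9b did not pass (0.02). Stab2, Clec4g, Tek and Bmp2 also fell, and Flt4 and Cdh5 rose. The 4 sinusoidal markers, of which Lyve1 rose and Stab2 and Clec4g fell, summed to 170 to 219 CPM in uninvolved and 176 to 216 CPM in low-risk livers.

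Of 20 listed genes of fetal liver and liver tumors 14 were tested. Among them 8 rose and 1 fell, the same numbers in both sets (median 1.32). Igf2, Dlk1, Spink1, Igf2bp1, Bex1 and Bex2 did not pass the filter on counts. Genes low in low-risk livers could be tested through the uninvolved samples alone, which favours those that rose. H19, an imprinted fetal noncoding RNA, was at 19.02, 24.4, 7.06, 532 and 45.0 CPM against 0.372, 0.306, 7.35, 0.580 and 0.603 CPM (6.14 (adjusted p 0.00173 by edgeR, SE 1.32)), so that sample 3+6 exceeded the others by more than 10-fold, sample 7 lay below low-risk liver 8, and tumors spanned 5.52 to 1495 CPM. Ly6d, a membrane-anchored surface protein, was at 55.2, 18.1, 14.8, 125 and 57.5 CPM against 1.25, 1.84, 4.32, 1.80 and 2.65 CPM without overlap (4.52 (adjusted p 1.9e-05 by edgeR, SE 0.56)). Tspan8 (2.30), Golm1 (1.95), Cd24a (1.93) and Igf2bp3 (1.49) rose and Igf2bp2 fell (-1.74). The classical tumor markers Afp, at 3.43, 2.95, 4.38, 3.90 and 2.81 CPM against 3.01, 3.14, 3.54, 2.72 and 3.18 CPM (0.17 (adjusted p 0.338 by edgeR, SE 0.14)), and Gpc3 (-0.18) did not pass.

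Metallothioneins bind zinc and copper. Of 9 genes of metallothioneins and zinc transport 4 rose and 5 fell, 3 and 3 of them in both sets. Mt2 was at 8.32, 8.82, 30.5, 7.59 and 15.1 CPM against 0.643, 0.153, 0.661, 0.397 and 0.837 CPM (4.69 (adjusted p 1.55e-05 by edgeR, SE 0.59)) and Mt1 at 67.2, 66.5, 163, 54.7 and 90.8 CPM against 12.5, 4.71, 13.1, 5.86 and 16.6 CPM (3.06 (adjusted p 0.00127 by edgeR, SE 0.64)), with sample 7 the highest for both. The zinc importers Slc39a4 (2.53) and Slc39a5 (1.09) rose, and the exporter Slc30a10 (-1.18), which moves manganese, fell together with 4 other carriers. In glycolysis and gluconeogenesis 7 genes rose and 11 fell of 26 (7 and 6 in both sets; 8 and 3 with library totals alone). The genes that rose included the hexokinases Hk2, at 8.72, 6.34, 5.77, 7.26 and 8.74 CPM against 3.21, 2.68, 2.80, 1.95 and 2.78 CPM (1.46 (adjusted p 2.14e-06 by edgeR, SE 0.16)), and Hk1 (0.91), the phosphofructokinase Pfkp (1.44) and Pkm (0.75), forms that predominate outside the adult liver. The liver forms Pklr, at 81.7, 69.7, 43.6, 123 and 83.5 CPM against 242, 255, 427, 196 and 246 CPM (-1.76 (adjusted p 0.000747 by edgeR, SE 0.35)), and Slc2a2 (-0.76) fell, as did G6pc (-0.84), which releases glucose. Of 20 clock genes 2 rose, Noct and Per1 (1.497), and 2 fell, Nr1d2 (-0.79) among them, with 1 higher and 0 lower in both sets (median -0.13; 0.138 with library totals alone). The core clock gene Arntl was at 10.8, 36.7, 43.3, 22.1 and 24.5 CPM against 10.4, 9.31, 41.3, 30.4 and 28.4 CPM and did not pass (0.20 (adjusted p 0.692 by edgeR, SE 0.39)), and the time of day of collection is not given in the sources used here.

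Besides Scn2a, the list of neuronal and excitable genes had 5 other members higher and 0 lower of 11 tested (median 1.02), with 22 listed. Of those higher, only Scn2a and Scn8a (1.41) passed in both sets. Members near the floor in low-risk livers, as Scn2a was, could be tested through the uninvolved samples alone. Scn3a (2.55) and Cacna1a (1.10) rose, and the neuronal markers Rbfox3 (0.22), Syp (0.41) and Syt1 (-0.06) did not pass.

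Counts of mitochondrial genes moved in opposite directions by genome and by gene. Of 27 nuclear genes of oxidative phosphorylation 21 fell and 0 rose (median -0.33, 8 in both sets; 9 lower and 2 higher with library totals alone), led by Ndufa4 (-0.92) and Cox7a2 (-0.73). The 13 mRNAs of the mitochondrial genome summed to 32100 ± 4090 CPM (SD, n = 5) in uninvolved and 22100 ± 359 CPM (n = 5) in low-risk livers. The groups did not overlap (log2 difference 0.53, exact two-sided permutation p 0.00794, adjusted 0.00794 over 3 sums), though vehicles spanned 22700 to 29800 CPM. Of the 13 genes 6 rose and 4 fell, 6 and 3 in both sets. The light-strand gene mt-Nd6 was at 475, 549.8, 740.2, 456 and 409 CPM against 220.4, 185, 185, 209 and 194 CPM (1.41 (adjusted p 5.79e-07 by edgeR, SE 0.13)), whereas mt-Co3, a core subunit of cytochrome oxidase, was at 68.8, 13.04, 16.98, 9.57 and 10.8 CPM against 91.3, 85.8, 92.3, 105 and 107 CPM (-2.01 (adjusted p 0.00162 by edgeR, SE 0.44)) and mt-Co2 at 17.3, 20.5, 19.96, 15.3 and 21.1 CPM against 36.1, 43.3, 44.2, 46.6 and 51.3 CPM (-1.24 (adjusted p 4.48e-07 by edgeR, SE 0.11)). Uninvolved sample 1 was near the low-risk livers for mt-Co3 and the other 4 samples were far below. Counts of mt-Co3 and mt-Co2 were low beside other mRNAs of this genome. In low-risk livers mt-Cytb was at 2133 to 2452 and mt-Nd1 at 2402 to 2499 CPM of library totals. Whether all reads of mt-Co3 and mt-Co2 were counted was not tested, so their falls may not stand for the RNA. Small nuclear, nucleolar and Cajal body RNAs summed to 987 ± 335 CPM (SD, n = 5) against 585 ± 40.2 CPM (n = 5; log2 difference 0.70, exact two-sided permutation p 0.00794, adjusted 0.00794), with sample 12 at 1570 CPM and vehicles at 590 to 784 CPM. The part of library preparation in these sums was not tested.

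The risk difference at 10 months was set against that at 5 months, when 10 high-risk and 16 low-risk livers were sampled. All 10-month livers were in sequencing batch 1, whereas most 5-month livers of either risk group were in another batch. At 5 months both batches held livers of either risk group. In a test of the difference between the ages, with sequencing batch in the fit, 72 of 16084 genes (0.448%) passed at an adjusted p of 0.05 by edgeR, 29 with a higher and 43 with a lower value at 10 months. Of these 14 had predicted names or were no protein-coding genes. The count moved between 4 and 231 under other settings. Of the 24 genes with the largest changes at 10 months, 23 were called in the same direction at 5 months, where 42.2% of 16084 genes were called (22.8% higher and 19.3% lower), and 0 had a difference between the ages that passed. The naming rule took 6 protein-coding genes without predicted names, and larger called differences, higher at 10 months, were found for small RNAs, pseudogenes and predicted genes, such as 4.11 for Snora23, a small nucleolar RNA named after its value was seen. The smallest adjusted p among the 6 genes singled out by the naming rule was that of Nt5e, which makes adenosine outside the cell and is also known as CD73. Its CPM ran from 5.01 to 6.74 in uninvolved samples and from 6.62 to 15.4 in low-risk livers of 10 months, against 11.2 to 58.3 in high-risk and 3.71 to 20.1 in low-risk livers of 5 months. The log2 fold change was -0.85 at 10 months and 1.69 at 5 months, a difference of -2.54 (SE 0.42, edgeR adjusted p 0.00387), which passed under 14 of 15 other settings. The Mup gene Mup21 changed by -1.61 at 10 months and -4.55 at 5 months (difference 2.94, SE 0.60, edgeR adjusted p 0.024), and passed under 9 of 15. Angptl8, a feeding-induced inhibitor of lipoprotein lipase, had 0.79 and -1.33 (difference 2.12, SE 0.45, adjusted p by edgeR 0.0278), and Adgrf1, an adhesion receptor, -0.19 and -2.48 (2.29, SE 0.51, adjusted p by edgeR 0.0347). Acot2, a mitochondrial thioesterase, had -1.02 and 1.97 (difference -2.99, SE 0.70, edgeR adjusted p 0.0434), and the organic anion transporter Slc22a29 -0.80 and 2.14 (-2.94, SE 0.63, edgeR adjusted p 0.0278). These 4 genes passed under 4 to 7 of the 15 settings. In the fit over both ages the 5-month difference passed for all 6 genes. The 10-month difference passed for Mup21 (edgeR adjusted p 0.0151). For Nt5e, Angptl8, Acot2, Slc22a29 and Adgrf1 it did not (edgeR adjusted p 0.0639 to 0.747), so opposite signs are no called reversal.

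**Figure D5:**
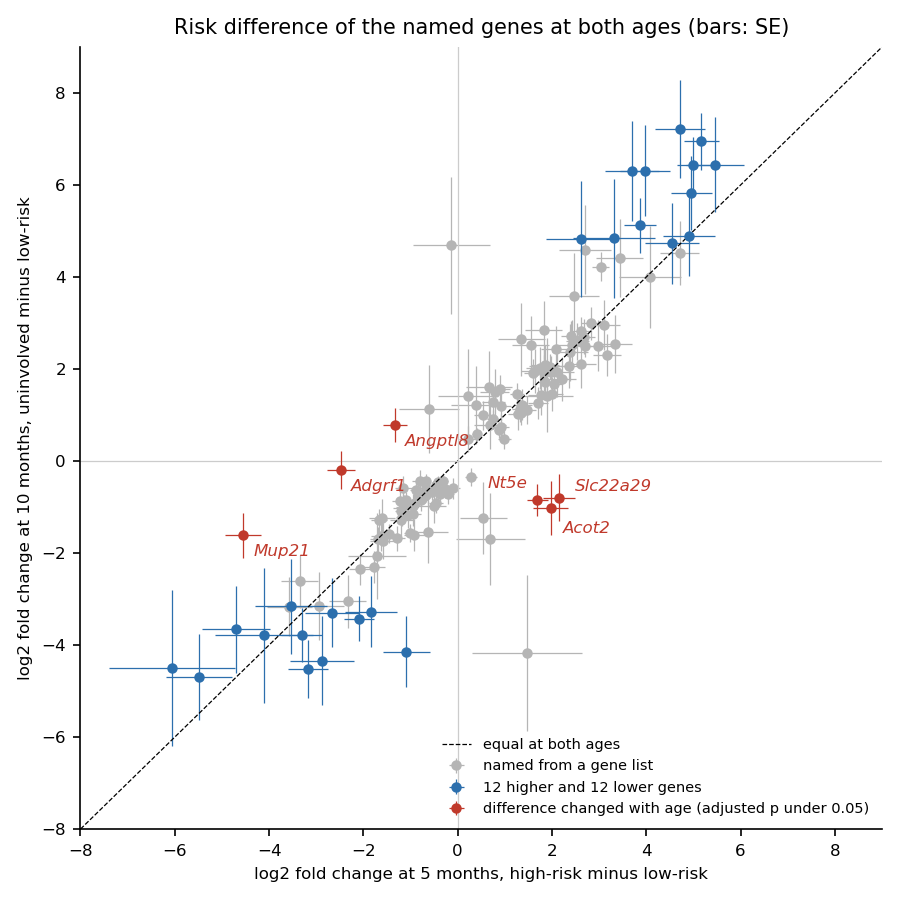
Log2 fold change of the risk difference at 5 months (x axis) and at 10 months (y axis) of the 24 genes with the largest changes at 10 months and of the 6 genes that the naming rule took for their difference between ages (in red), with other genes named from the lists in grey, each with its SE as bars from the fit over both ages and not from that of 10-month livers alone. Of the 24 genes 23 were called at 5 months in the same direction, where 42.2% of all genes tested were called. The genes in red were chosen for their distance from the diagonal. They include Nt5e at 1.69 and -0.85, of which the 10-month value did not pass in this fit.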

How the data were processed

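RNA of whole liver pieces was made into stranded total RNA libraries with a TruSeq kit after DNase treatment, per the labels' protocols. The submitters' processing notes name Trim Galore, HISAT2, featureCounts and the mm10 build, with no role, order or version. The authors deposited whole-number counts per gene for 55536 genes, which the file name says came from featureCounts and were adjusted between batches with ComBat-seq; the strand setting and the groups given to that adjustment are not given in the sources used here. All 55536 identifiers matched GENCODE M21 (GRCm38), from which positions, classes, lengths and GC content were taken.

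Counts were fitted in R 4.3.3 with edgeR 4.0.16 (TMM scaling, filterByExpr, robust quasi-likelihood fit, F test, Benjamini-Hochberg adjustment over all genes tested, threshold 0.05), in a fit of the 5 low-risk, 5 uninvolved (libraries 3 and 6 summed) and 6 vehicle samples. Tumors and a vehicle library labelled as a tumor stayed out. The age comparison used the 5-month and 10-month low-risk and high-risk livers with sequencing batch as a covariate. Sums of genes were compared by exact two-sided permutation tests. The fits were checked on simulated counts. Levels are CPM on the TMM scale, and the library measures are CPM of library totals.

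The comparison, the 45 gene lists (825 genes, 824 found in the table) and the tests were chosen with earlier results of these data known. The naming rule took the 12 largest changes each way among called protein-coding genes without predicted names, with at least 2 CPM in the higher group and no overlap between groups. To these it added up to 3 called genes with the smallest adjusted p of each list and the 3 largest age differences each way. Other list members were named after their values were seen. Lists are described by counts and medians, with no test of the list. Their counts are to be read beside the 27.7% higher and 24.7% lower of all genes tested.

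Alternatives were RLE size factors, library totals, no filter on low counts, DESeq2 1.42.0, fits without vehicles or with tumors, libraries 3 and 6 separate or left out, protein-coding genes only, thinned counts and leaving out each sample. Added after the data were seen were either set of uninvolved libraries alone and a fit with trends of GC content and exon length taken out. A few members of the lists are not reported here by name.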

Additional observations from a re-analysis of the deposited data

Results flagged for a closer look

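Samples far from the rest of their group were searched for in 54 groups of values, the 24 genes with the largest changes and 3 sums in each of the 2 groups, and 12 were found, where chance gives about 5 in 100. Of these, 5 were uninvolved sample 3+6, at 11.29 CPM of Inava, 22.32 of Rasal1, 8.842 of Timp4, 9.299 of Gipc2 and 8.362 of Insyn1, each above the other 4 uninvolved samples. Uninvolved sample 1 stood above its group with 5.307 CPM of Fbn2, sample 5 with 8.795 CPM of Mup15, and sample 12 with 1570 CPM of summed small nuclear, nucleolar and Cajal body RNA. Low-risk liver 8 stood above the other low-risk livers with 0.6223 CPM of Lrtm2, 135.8 CPM of Mup2 and 7.973 CPM of Mup22, and low-risk liver 9 with 188.6 CPM of Mup15.

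The risk difference itself differed between 10 and 5 months by a tested log2 value of 2.94 for Mup21, 2.29 for Adgrf1, 2.12 for Angptl8, -2.99 for Acot2, -2.94 for Slc22a29 and -2.54 for Nt5e.

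The vehicle library labelled as a tumor, which entered no comparison, had 11.51 M counts and 13.01% of them from mitochondrial mRNA. It lay above all 6 other vehicles for 12 of the 12 genes that rose most in uninvolved liver, with 57.5 CPM of library totals for Gpnmb against 0.443 to 1.45 CPM and 197 CPM for Noct against 3.1 to 7.84 CPM. It lay below them for 10 of the 12 genes that fell most, with 2.87 CPM of Hsd3b5 against 162 to 289 CPM and 1.3 CPM of Cd163 against 12 to 24.8 CPM. The exceptions were Mup15 (96.4 CPM against 27.2 to 146 CPM) and Cxcl13 (0.521 CPM against 0.516 to 2.6 CPM).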

How the results depend on the processing

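The count of genes called between uninvolved and low-risk liver stayed within 1.5 times of 8561 under every alternative run. It was 7305 without uninvolved libraries 1, 5 and 7 (5443 of them shared), 10889 without libraries 3, 6 and 12 (7742 shared), 8817 with DESeq2 and 7595 to 9255 on leaving out each sample. Of 144 genes selected by the naming rule 131 kept their call under every alternative that tested them and 142 on leaving out each sample. Of the 45 list medians 25 moved by less than 1 SD of the samples throughout, and 5 changed sign with library totals alone: hepatocyte transcription factors (to 0.0012), lipid droplet (0.002), acute phase (0.066), clock (0.138) and endothelial genes (0.177). The age comparison was unstable. In place of 72 genes it gave 4 with batch 1 alone, a setting that leaves out the 5-month livers of batch 2 and so has fewer samples. It gave 231 with DESeq2 and 184 without libraries 1, 5 and 7. On leaving out each sample of 10 months it gave 6 to 80 (80 without sample 3+6, 6 to 37 for the others). The cause of this instability was not tested. Without libraries 1, 5 and 7 the log2 difference was -2.435 for the Mup sum, 0.3919 for mitochondrial mRNA and 1.067 for small RNAs, each with an exact permutation p of 0.0952, the smallest that 2 samples against 5 allow. No paired analysis was possible because the low-risk and uninvolved livers share no mouse number. Genes with few counts in low-risk livers, such as Tinag with 3, have wide counting intervals.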
